A study of Mus musculus with 8 samples.

Results

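The genes described here are the interleukins and their receptors, taken as every gene whose symbol in the deposited matrix begins with Il followed by a digit. There were 83 such genes among the 20920 gene symbols of the array, covered by 125 probes. By role they were 38 ligands, 38 receptor chains, 6 decoys or soluble inhibitors (Il1rn, Il1r2, Il1f5, Il18bp, Il13ra2 and Il22ra2) and Il4i1, an enzyme named after interleukin-4. RNA of the whole lung came from C57BL/6 mice, 4 of them wild-type and 4 transgenic for Scgb3a2, all male, untreated and 8 to 10 weeks old by the labels, and was measured on 8 two-color arrays. The transgene placed the mouse Scgb3a2 cDNA under the human SP-C promoter, a promoter of alveolar type II cells, while the gene's own promoter is active in airway epithelium. The line came from 1 founder, so effects of the insertion site and of the transgene cannot be told apart. Each array set 1 mouse, in the Cy5 channel, against a common pool of lung RNA in the Cy3 channel, and no dyes were swapped. Every ratio below is the log2 of sample over pool for 1 probe, so that 0 means equal signals, and a level of one gene is never set against that of another.

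Interleukins are secreted proteins by which leukocytes, epithelium and stromal cells signal to each other. Those of the IL-1 family bind receptors of the immunoglobulin type and signal through MYD88 and NF-kappaB, whereas most of the others bind receptors that share a chain, such as the common gamma chain Il2rg, the common beta chain or gp130 (Il6st), and signal through JAK kinases and STAT factors. The IL-1 family is held in check by a receptor antagonist (Il1rn), a decoy receptor without a signaling domain (Il1r2), an IL-18 binding protein (Il18bp) and an antagonist of the IL-36 receptor (Il1f5, now called Il36rn). In the lung, Il33 is stored in the nuclei of epithelial cells and released on damage, Il18 and Il1b are matured by caspase-1, and Il5, Il9 and Il13 belong to the type 2 response of the asthmatic airway.

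The sequences just upstream of Il1b and Il6, the ligands of this group whose mRNA the study also followed by PCR, are shown because between them they hold a TATA box and an NF-kappaB motif, features known from inducible interleukin genes. Both are RefSeq sequences of GRCm38.p6, read 5′ to 3′ toward the start of transcription, and cover the 250 bases before it. Capitals mark matches to TATAAA or to GGGANTTTCC, on either strand. The Il1b sequence lies at chr2:129371140-129371389 on the minus strand, and that of Il6 at chr5:30012864-30013113 on the plus strand.
Il1b: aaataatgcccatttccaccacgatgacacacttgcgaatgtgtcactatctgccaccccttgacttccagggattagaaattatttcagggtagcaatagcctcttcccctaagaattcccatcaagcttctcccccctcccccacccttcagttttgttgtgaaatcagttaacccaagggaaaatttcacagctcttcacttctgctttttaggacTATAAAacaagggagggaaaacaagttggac
Il6: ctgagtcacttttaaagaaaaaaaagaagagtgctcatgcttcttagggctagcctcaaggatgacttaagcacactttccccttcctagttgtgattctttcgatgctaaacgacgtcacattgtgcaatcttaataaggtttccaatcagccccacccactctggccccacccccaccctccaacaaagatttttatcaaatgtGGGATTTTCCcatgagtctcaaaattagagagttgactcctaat
In these windows Il1b held TATAAA at position -31 and no match to the longer motif, and Il6 held the longer motif at -44 and no TATAAA. By symbol, 66 of the 83 genes were found in the promoter table. A TATAAA on the coding strand between -35 and -25 was present in 7 of 34 ligand promoters (20.6%), in 0 of 38 receptor promoters and in 1.75% of all 32851 promoters, where some genes have several. The ligands with it were Il1a, Il1b, Il2, Il13, Il17a, Il17f and Il33, and of the inhibitors Il13ra2 had it. The NF-kappaB motif was found in 2 of the 34 ligand promoters, among them that of Il6, and in 0.356% of all promoters. These are matches of letters and not measured sites.

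The 8 arrays lay on 4 slides with a mouse of each genotype on every slide, and scanning took 2 days. Between 91 and 104 of the 125 interleukin probes were well above background in the sample channel of an array, and between 97 and 108 in the pool channel. Scgb3a2 itself was higher in the transgenic lungs by 0.88 on the log2 scale (standard error 0.24), with an adjusted p of 1 by limma and 1 wild-type array above 1 transgenic array. Of the epithelial markers listed for the labelled tissue, Sftpc, Sftpb, Sftpa1, Sftpd, Scgb1a1, Scgb3a2, Ager and Pdpn were well above background on all 8 arrays and Aqp5 had no probe. Lists of leukocyte markers varied between mice. The mean log2 ratio of 7 neutrophil genes ran from -1.58 to 0.06 in wild-type and from -2.06 to 0.69 in transgenic lungs, with wild-type replicate 4 and transgenic replicate 1 far above the others.

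Most of the family was measurable in the untreated lung. Of the 83 genes, 73 were detected, which here means that at least 1 probe was well above background in Cy5 on 4 or more arrays, and 66 genes were so on all 8. By probe the figure was 99 of 125, or 79.2%, against 82.5% of all probes on the array. Among the ligands 33 of 38 genes were detected in this way, and among the receptors 34 of 38. The 19 detected genes of the IL-1 family were well above background on every array, and its member that was not detected was Il1rapl1, a receptor-like gene of neurons.

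The genes that were not detected included the T cell cytokines Il5, Il17a and Il21. Other T cell cytokines, among them Il2, Il4, Il9, Il13 and Il17f, were well above background on all 8 arrays. Il6, Il20, Il21 and Il5ra were well above background on no array in the sample channel. Il5, the growth factor of eosinophils, was so on 2 arrays, Il17a and Il1rapl1 on 1 each, Il20ra on 2, and Il23r and Il22ra2 on 3 each. In the pool channel Il6 was well above background on 7 arrays, Il5 and Il20ra on 6 each and Il1rapl1 and Il23r on 4 each, while Il20, Il21 and Il5ra were so on none there either.

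Il6, a ligand that signals through gp130, was detected on 0 of 8 arrays in the sample channel and on 7 of 8 in the pool channel. Its net signal was 10.7 to 17.3 units in the sample channel and 23.8 to 38.8 in the pool channel, so the ranges did not overlap. By the mean ratio the pool was 1.22-fold brighter, a value from sample signals that were not well above background and on a scale that the background offset compresses. Il5 and Il20ra showed the same order, each with 2 arrays in the sample channel and 6 in the pool channel. Of the 125 interleukin probes, 8 (6.4%) were detected in the pool channel alone and 1 (0.8%) in the sample channel alone, and over all probes of the array the shares were 2.42% and 1.21%. Since the pool was always in Cy3, the dye and the content of the pool cannot be told apart. An equal mixture of the 8 mice, as the methods describe the pool, would lie between the highest and the lowest mouse.

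**Figure D1:**
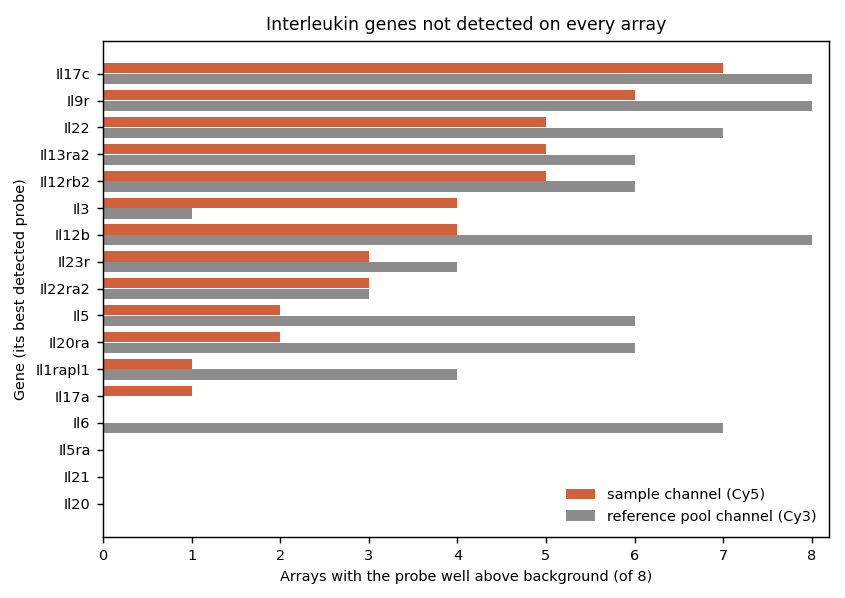
Bars give the number of arrays, of 8, on which the best detected probe of a gene exceeded background clearly, separately for the sample and the pool channel, for the 17 interleukin genes not detected in the sample channel on every array. Il6 is at 0 against 7 and Il12b at 4 against 8, whereas Il3 is at 4 against 1.

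The arrays of untreated lungs were run to look into the later response of the transgenic mice to bleomycin, an agent that injures the lung, and no interleukin gene passed the test between the genotypes after adjustment. All 99 detected probes could be tested. By limma with Benjamini-Hochberg adjustment over all 32645 probes tested, 0 of the 99 had an adjusted p under 0.05, which was also the share of all probes (0%). At an unadjusted p under 0.05, limma found 1 interleukin probe higher and 1 lower, of 99, against 1.12% of all probes higher and 0.971% lower. The methods' t-test gave 3 higher and 1 lower, and 0 after adjustment. Before adjustment it called 518 of all 32645 probes higher, where limma called 365. The differences ran from -0.38 for a probe of Il6ra to 0.26 for a probe of Il1rl2, and none reached 1.5-fold. The 95% confidence interval of each of the 99 differences lay within 2-fold in both directions. The background offset compresses the ratios of dim probes, so for these the intervals do not bound the change in RNA. With Agilent processed signals 2 differences exceeded 1.5-fold.

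Of the 99 probes, 58 had a positive and 41 a negative difference, and the median was 0.03 against 0.001 for all probes. The ligands were evenly spread, 17 of 33 tested genes higher and 16 lower, with a median of 0.005. Of the 34 receptors tested, 23 had a positive and 11 a negative difference (median 0.09). By its brightest tested probe, each of the 4 inhibitors of the IL-1 family lay higher, by 0.10 for Il18bp, 0.15 for Il1f5, 0.19 for Il1r2 and 0.19 for Il1rn. The smallest unadjusted p was 0.161 by limma. Second probes were at 0.09 for Il18bp, 0.09 for Il1rn and, under the filter, -0.01 for Il1r2. With 1 mouse left out, the lowest difference was 0.006 for Il1r2, 0.008 for Il1f5 and 0.11 for Il1rn. A list of 40 genes that act with these receptors (kinases, STAT factors, SOCS inhibitors, adaptors and shared chains) gave 38 tested genes, of which 26 were higher and 12 lower and 0 had an unadjusted p under 0.05 by limma, with a median of 0.08. Without transgenic replicate 1 the median of the interleukin probes was 0.0005, and with median centring in place of loess it was 0.002, where all probes had a median of -0.05.

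**Figure D2:**
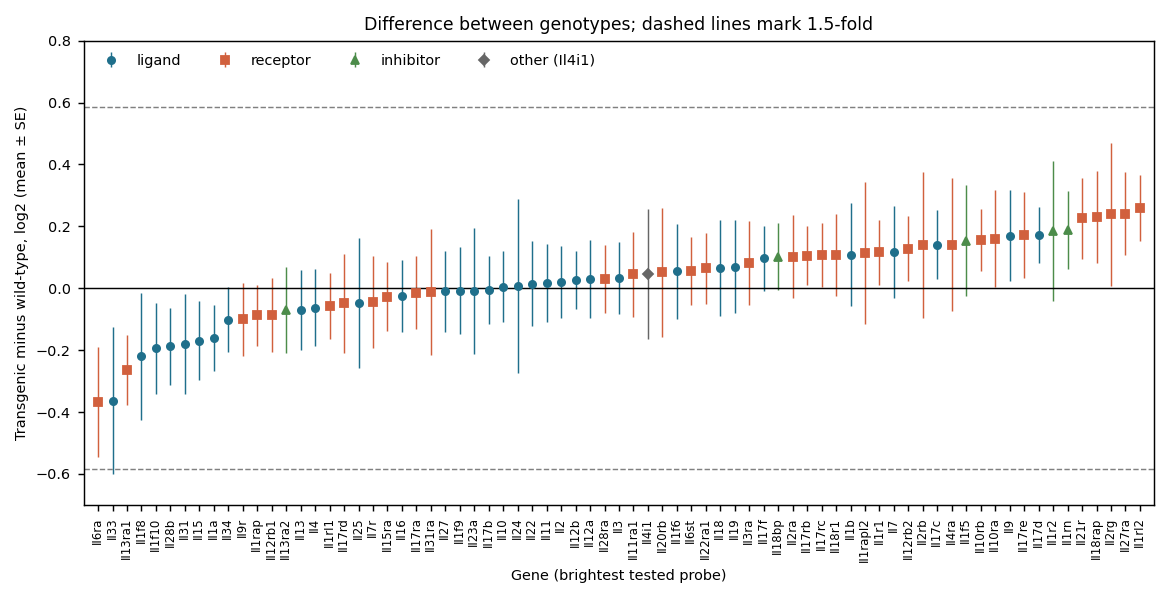
Points give transgenic minus wild-type on the log2 scale with the standard error of limma's fit, for the brightest tested probe of each of 73 interleukin genes in order of size, by role. All points lie between the dashed lines of 1.5-fold, from -0.37 for Il6ra to 0.26 for Il1rl2.

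The probe with the smallest unadjusted p among those higher was that of Il1rl2, the receptor of the IL-36 cytokines. Its log2 ratio was -0.90, -0.69, -0.88 and -0.75 in wild-type replicates 1 to 4, and -0.55, -0.40, -0.48 and -0.74 in transgenic replicates 1 to 4. The transgenic arrays were the higher ones except for transgenic replicate 4, which lay just above wild-type replicate 4 and below wild-type replicate 2. The difference was 0.26 (95% interval 0.02 to 0.50), with p = 0.0332 before and p = 1 after adjustment by limma, and an exact permutation p of 0.0571. The transgenic array exceeded its wild-type partner by 0.14 to 0.34 on all 4 slides, and the scan days gave 0.24 and 0.28. The other probe of Il1rl2, well above background on all 8 arrays too, gave 0.04 (95% interval -0.27 to 0.36), a smaller value than that of the first probe.

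Il13ra1, a chain of the receptor for Il13 and Il4, gave the probe that was lower. Wild-type replicates 2 to 4 were at -0.47, -0.56 and -0.43, the value of replicate 1 being left out for a flagged spot, and the transgenic replicates were at -0.67, -0.71, -0.67 and -0.95. All transgenic values lay under all wild-type values. The difference was -0.26 (95% interval -0.52 to -0.01, unadjusted p = 0.0413 and adjusted p = 1 by limma), and the exact permutation p was 0.0286, the smallest that 3 arrays against 4 allow. A second probe with 8 values gave -0.08 (95% interval -0.51 to 0.34), with wild-type replicate 3 at 0.22 as its highest and transgenic replicate 1 at -0.80 as its lowest value. With the scan day as a block the unadjusted p of the first probe was 0.0532 by limma.

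Il17d, a less studied cytokine of the IL-17 family, was the single probe whose genotypes did not overlap among the 91 interleukin probes with 8 values, that is 1.1% against 1.46% of all probes with 8 values. Wild-type lungs were at 0.21, 0.12, 0.19 and 0.28, and transgenic lungs at 0.45, 0.32, 0.38 and 0.36. The difference was 0.17 (95% interval -0.03 to 0.37, unadjusted p = 0.0845 by limma, exact permutation p = 0.0286), and on the slides it was 0.09 to 0.23. In the sample channel alone it was -0.01, so the separation was one of the ratios. A probe of Il10rb, a receptor chain shared by Il10, Il22 and the interferon lambdas, was apart as well but had 7 values, so it falls outside the rule for named genes and was chosen after its values were seen. It was at -0.38, -0.31 and -0.29 in wild-type replicates 1, 3 and 4 and between -0.23 and -0.13 in transgenic lungs, with a difference of 0.16 (95% interval -0.07 to 0.38, exact permutation p = 0.0286, and by limma p = 0.148 before adjustment).

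The lowest difference belonged to Il6ra, the receptor chain that binds IL-6, which falls outside the rule for named genes and was chosen after its values were seen. Its probe with 8 values was at 0.48, 0.65, 0.57 and -0.16 in wild-type and at -0.26, 0.03, 0.05 and 0.19 in transgenic lungs. Wild-type replicates 1 to 3 were high, and wild-type replicate 4 was as low as the transgenic arrays. The difference was -0.38 (95% interval -0.76 to 0.00, unadjusted p = 0.0508 and adjusted p = 1 by limma), and the second probe, with 6 values, gave -0.37 (unadjusted p = 0.0674 by limma). With the slide as a block, the unadjusted p by limma was 0.0349 for the first probe and 0.0117 for the second, whose difference was -0.54 there, and the adjusted p was 1 for both. Slide by slide, the transgenic value of the first probe was lower by 0.38 to 0.74 on 3 slides and higher by 0.21 on the fourth.

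Of the cytokines that the study names, Il1b and Il9 were not separated by genotype either in these untreated lungs. The study's PCR of Il1b and Il6 was of lungs after bleomycin or PBS, a different condition. It names Il5 and Il9 from earlier work on ovalbumin-induced airway inflammation. Il1b was at -0.59, -0.76, -0.49 and -0.25 in wild-type and at 0.08, -0.56, -0.64 and -0.53 in transgenic lungs, and transgenic replicate 1 lay above every other array. The 95% interval of its difference of 0.11 ran from -0.26 to 0.48, and the difference was -0.05 without transgenic replicate 1 and -0.02 with array weights. Il9 was at 0.30, 0.44, 0.08 and 0.71 in wild-type and at 0.66, 0.58, 0.71 and 0.26 in transgenic lungs, with overlapping groups and a difference of 0.17 (95% interval -0.15 to 0.50). For Il6 and Il5, below the filter in the sample channel, no test was made. The type 2 ligands Il4 and Il13 had differences of -0.06 (95% interval -0.33 to 0.21) and -0.07 (95% interval -0.35 to 0.21).

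Against the pool, some interleukin genes were low and others high on arrays of both genotypes. By limma with adjustment over all probes tested, 30 of the 99 probes were above the pool (29.5% of all probes were) and 37 below it (28% of all probes were). Of the 99, 23 probes were above 0 and 26 below 0 on every array that gave a value. The matching shares of all probes are not given, so these counts do not show whether the interleukin probes differ from the rest of the array. The ligands leaned to the upper side, with 13 of 33 tested genes above and 8 below and a median of 0.13, and the receptors to the lower side, with 11 of 34 above, 16 below and a median of -0.06. All these ratios carry the dye as well as the pool, which cannot be told apart, so they describe the channel of the mice against the channel of the pool.

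The lowest ratios were those of Il1r2 and Il1rn, which both hold IL-1 in check, whereas the inhibitor Il18bp was at -0.39 and Il1f5 had the highest ratio of all the genes. Il1r2, the decoy receptor of Il1a and Il1b, was at -1.64, -1.85, -2.14 and -1.16 in wild-type and at -0.98, -1.64, -1.51 and -1.92 in transgenic lungs, a mean of -1.60 (standard error 0.11, adjusted p = 6.84e-07 by limma). A second Il1r2 probe, well above background on 3 arrays in the sample channel and on 8 in the pool channel, had a mean of -1.05. Il1rn, the receptor antagonist, ran from -1.52 to -0.95 with a mean of -1.28, and its second probe had a mean of -0.61. Il1r2 and Il1rn were below the pool on all 8 arrays with both probes. In these ratios the dye and the content of the pool cannot be told apart. Bulk RNA also does not separate the number of cells of a type from the RNA per cell.

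Il27, a ligand made by macrophages and dendritic cells, was at -1.32, -1.25, -1.40 and -0.96 in wild-type and at -1.07, -1.29, -1.50 and -1.12 in transgenic lungs, with a mean of -1.24. Il17c, a cytokine of epithelium, ran from -1.13 to -0.67 and was below the pool on all 8 arrays. Il4i1 had 7 values, from -1.28 to -0.50, and Il4ra, the receptor chain shared by Il4 and Il13, ran from -1.58 in wild-type replicate 3 to -0.42 in wild-type replicate 4. The receptor chains next in order were Il10ra at a mean of -0.77, Il1r1, the signaling receptor of IL-1, at -0.69, Il1rl2 at -0.67 and Il17rb at -0.63. These receptor means follow each other within about their standard errors of 0.05 to 0.11.

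On the upper side, Il1f5, the antagonist of the IL-36 receptor, was at 1.99, 1.69, 2.48 and 2.35 in wild-type and at 2.56, 2.33, 2.24 and 1.99 in transgenic lungs, a mean of 2.20 (standard error 0.09, adjusted p = 1.66e-08 by limma). Its second probe was well above background on no array in either channel. Il1rapl2, a receptor-like gene of the same family, had a mean of 1.73 with values from 1.18 to 2.44, whereas its second probe, detected on all 8 arrays, had a mean of 0.09. Il18rap, the accessory chain of the IL-18 receptor, had a mean of 0.94 by one probe and of -0.35 by the other. For these 3 genes the high ratio is that of 1 probe.

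Among the ligands, Il25, the IL-17 family member that induces type 2 cytokines, had 5 values from 0.71 to 1.36. Il31, a cytokine of T cells linked to itch, ran from 0.37 to 1.15, and Il17b from 0.53 to 0.88, both above the pool on all 8 arrays. In the IL-1 family as a whole 11 of 19 tested genes were below the pool and 5 above, and in the IL-17 family 3 of 10 were below and 6 above. Of the 38 genes tested on the list of signaling partners, 18 were below and 7 above, the lowest being Socs3 at -1.25. Over all probes tested, 28% were below the pool and 29.5% above it.

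**Figure D3:**
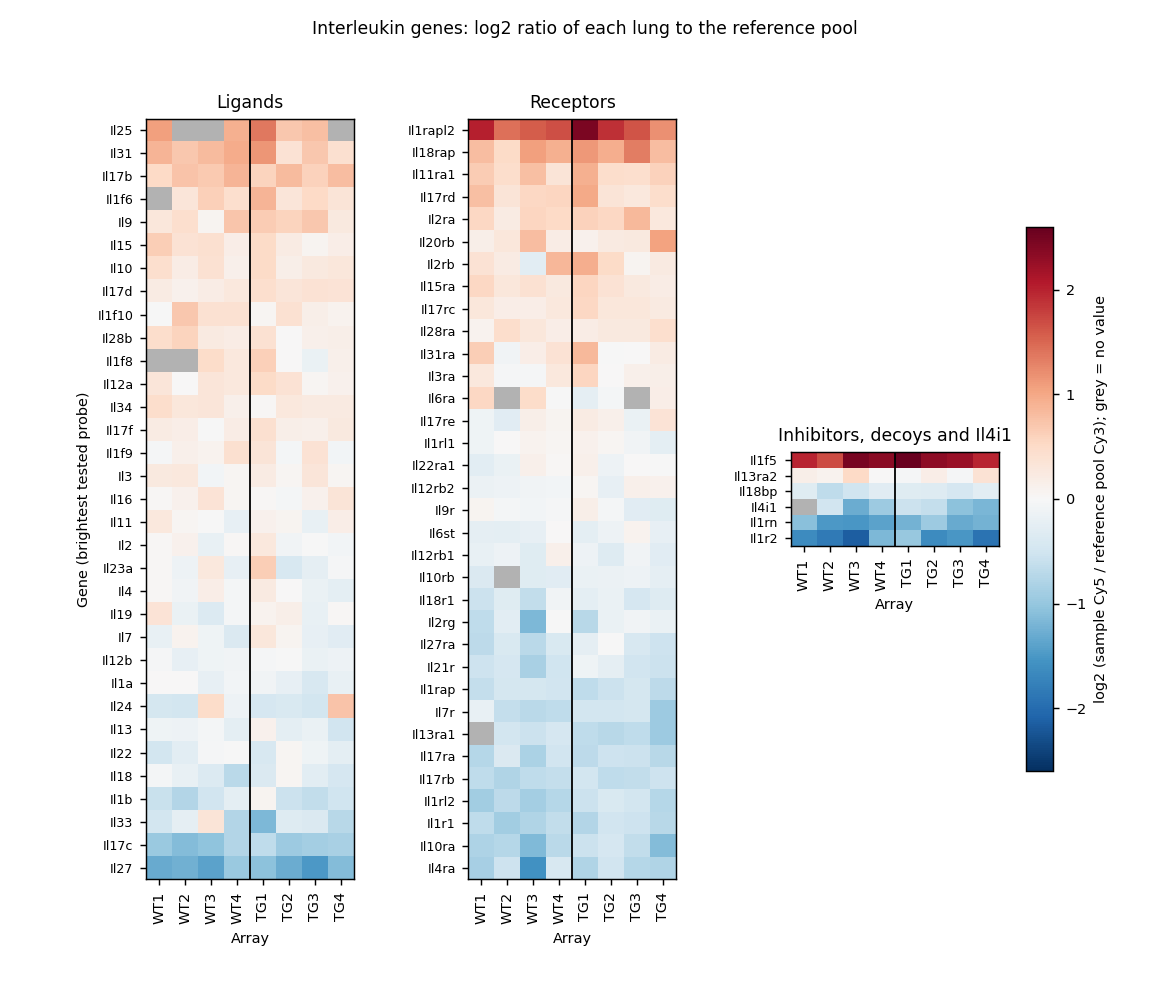
Color gives the log2 ratio of each lung to the pool for the brightest tested probe of 73 interleukin genes (rows, by role and mean) on the 4 wild-type and 4 transgenic arrays (columns, with a line between genotypes). Il1r2, Il1rn and Il27 are blue and Il1f5 and Il1rapl2 red on all 8 arrays, and Il24 and Il20rb are red on WT3 and TG4.

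The 29 ligands that were well above background on all 8 arrays came from every branch but that of the common beta chain, whose ligands Il3 and Il5 were so on 4 and 2 arrays. In the IL-1 family, Il1f6, Il1f8 and Il1f9 (the IL-36 agonists) had mean ratios of 0.48, 0.26 and 0.15, Il1f10 was at 0.27, Il1a at -0.15, Il18 at -0.29, and Il1b and Il33 were both at -0.47. Of the ligands grouped here with the common gamma chain, Il9 was at 0.47 and Il15, which sustains NK cells, at 0.32. Il2, Il4, Il7 and Il13 (placed here beside Il4, with which it shares Il4ra) lay between -0.17 and 0.01. In the gp130 and IL-12 branch Il12a was at 0.25, Il11 at 0.03, Il23a at -0.01 and Il31 at 0.75, with Il27 far below them.

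The other ligands belonged to the IL-10 and IL-17 branches or to none of these, and Il25 and Il17b among them had the high ratios given above. Il10 and Il28b (an interferon lambda) were at 0.29 and 0.27 and above the pool on all 8 arrays, Il19 was at -0.02 and Il24 at -0.15. Il17d and Il17f were at 0.29 and 0.19. Il34, a ligand of the CSF1 receptor, was at 0.25 and Il16, which attracts CD4 T cells, at 0.13. Of these 29 ligands, none had a genotype difference with an unadjusted p under 0.05 by limma, and the smallest was that of Il17d.

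A few genes varied strongly between mice without regard to genotype. Il24, a ligand of the IL-20 receptors, was at 0.47 in wild-type replicate 3 and at 0.74 in transgenic replicate 4, and between -0.48 and -0.14 on the other 6 arrays. Il20rb, a chain of the receptor that Il24 binds, was at 0.80 and 1.06 on the same 2 arrays and between 0.12 and 0.29 on the others, and it was singled out after its values were seen. These 2 arrays lay on the same slide and were scanned on the same day. A second Il24 probe, under the filter, was at -0.32 and -0.09 on these arrays and between -0.28 and -0.04 on the others, and a second Il20rb probe was at -0.38 and -0.10, so the high values were those of 1 probe each. The part of the slide in them was not tested.

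Il2rg, the common gamma chain, ran from -1.18 in wild-type replicate 3 to -0.01 in wild-type replicate 4, and in the transgenic lungs from -0.73 to -0.09. Il2rb, the beta chain of the IL-2 and IL-15 receptors, ran from -0.27 in wild-type replicate 3 to 0.95 in transgenic replicate 1. For Il2rg the wild-type lungs alone spanned the whole range of the 8 arrays. Il33 and Il1rapl2 were the others of the 5 genes with the largest spread over the 8 arrays.

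The variation between mice was set against lists of cell markers for 6 genes, over 8 arrays with Benjamini-Hochberg adjustment over the 6. Il1r2 followed the neutrophil list, with Pearson's r of 0.945 (exact permutation p = 0.000694, adjusted p = 0.00417) and Spearman's rho of 0.952 (exact permutation p = 0.00114, adjusted p = 0.00685). The list was high in transgenic replicate 1 at 0.69 and in wild-type replicate 4 at 0.06, where Il1r2 was highest too, and lay between -2.06 and -0.95 on the other arrays. Without these 2 arrays r was 0.766 (exact permutation p = 0.0625, n = 6), and within the scan days, of 4 arrays each, r was 0.936 and 0.983. Transgenic replicate 1 was scanned on the first of these days and wild-type replicate 4 on the second, so neither value is free of these arrays. All 7 genes of the list were well above background on all 8 arrays.

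Il1b also rose with the neutrophil list over the 8 arrays, at r = 0.827 (exact permutation p = 0.0141, adjusted p = 0.0211), but rho was 0.357 (exact permutation p = 0.389, adjusted p = 0.389). Without wild-type replicate 4 and transgenic replicate 1 its r was -0.303 (exact permutation p = 0.561), so this relation rests on those 2 arrays. By scan day its r was 0.92 on the day of transgenic replicate 1 and 0.98 on that of wild-type replicate 4. Transgenic replicate 1 had the highest value of both Il1b and the neutrophil list.

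Il33 followed the type II cell list, which holds 4 genes with values on all arrays, with r = 0.901 (exact permutation p = 0.00228, adjusted p = 0.00685) and rho = 0.833 (exact permutation p = 0.0154, adjusted p = 0.0308). Its log2 ratio was -0.48, -0.24, 0.33 and -0.77 in wild-type and -1.18, -0.34, -0.37 and -0.71 in transgenic lungs. The list ran from -0.02 to 0.88 in wild-type and from -0.18 to 0.18 in transgenic lungs, and wild-type replicate 3 was highest and transgenic replicate 1 lowest in both measures. Il33 was lower in the transgenic lungs by 0.36 (95% interval for transgenic minus wild-type -0.88 to 0.16, unadjusted p = 0.153 by limma), with scan days of -0.87 and 0.14, and the part of type II cells in that difference was not tested. Without the 2 arrays at the ends of the list r was 0.710 (exact permutation p = 0.11, n = 6), and within the scan days it was 0.927 and 0.930. Both arrays left out were scanned on the day that gave 0.927.

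Il18 followed the alveolar macrophage list, with r = 0.893 (exact permutation p = 0.00427, adjusted p = 0.00853) and rho = 0.833 (exact permutation p = 0.0154, adjusted p = 0.0308). Without wild-type replicate 4 and transgenic replicate 2 its r was 0.557 (exact permutation p = 0.253, n = 6), and within the scan days it was 0.481 and 0.999. Both arrays left out were scanned on the day that gave 0.999. Of the 6 genes used in that list 5 were well above background on all 8 arrays. Il7r did not pass with the T cell list (r = 0.446, exact permutation p = 0.261, rho = 0.381) nor Il2rb with the NK cell list (r = 0.146, exact permutation p = 0.731, rho = 0.429). The markers and the interleukin genes share their arrays and the loess curve of each array.

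**Figure D4:**
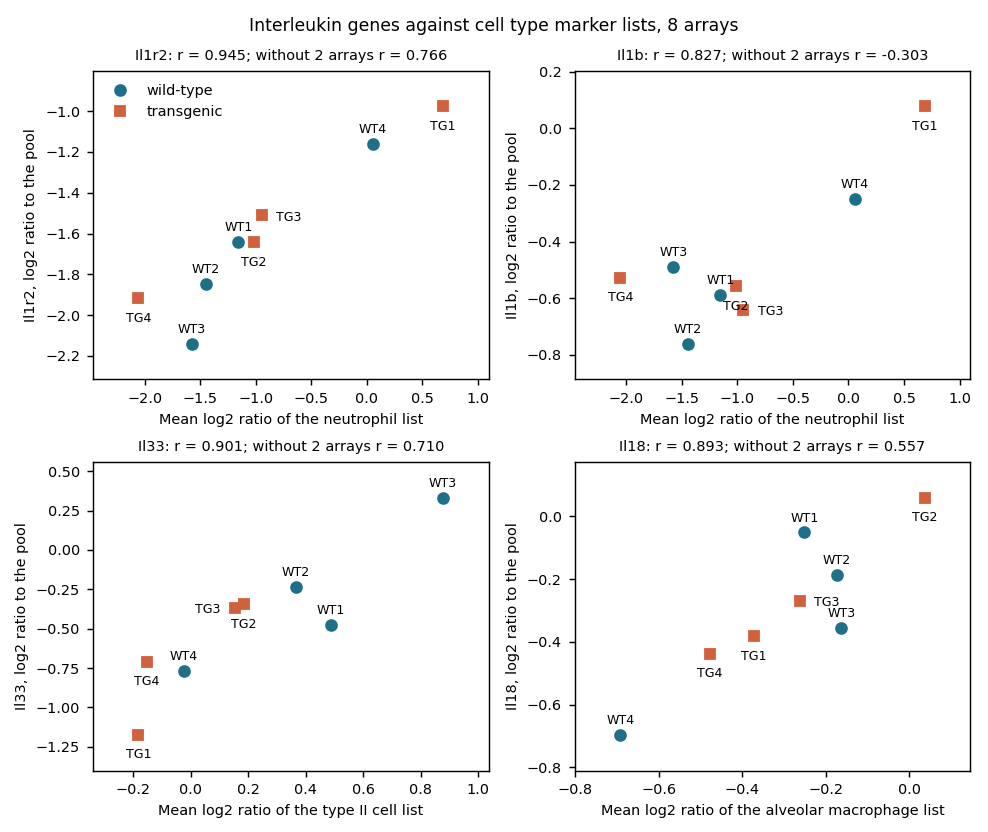
Each point is 1 array (circles wild-type, squares transgenic), with the mean log2 ratio of a marker list on the horizontal and the log2 ratio of an interleukin gene on the vertical axis. Il1r2 rises along the whole neutrophil axis, Il1b only through WT4 and TG1, and r falls to 0.766, -0.303, 0.710 and 0.557 for Il1r2, Il1b, Il33 and Il18 when the 2 arrays farthest from the median of the list are left out.

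Probes of the same gene did not always give the same answer. Of the 24 genes with more than 1 tested probe, the sign of the genotype difference turned between probes in 10, among them Il1a (-0.16 and 0.11), Il2 (0.02 and -0.08), Il16 (-0.02 and 0.03), Il1rapl2 (0.11 and -0.16) and Il7r (-0.04 and 0.12). The sign of the ratio to the pool turned in 7, namely Il2, Il15, Il15ra, Il16, Il18rap, Il1rap and Il20rb. For Il18rap and Il15 the probes of opposite sign each had an adjusted p under 0.05 by limma, at 0.94 and -0.35 for Il18rap and at 0.32 and -0.29 for Il15. Probes of a gene can lie in different transcripts, and which transcripts these probes measure was not analysed here. Il17rc (0.29 and 0.28), Il7r (-0.57 and -0.52) and Il1rl2 (-0.67 and -0.71) show that other pairs gave nearly equal ratios to the pool.

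**Figure D5:**
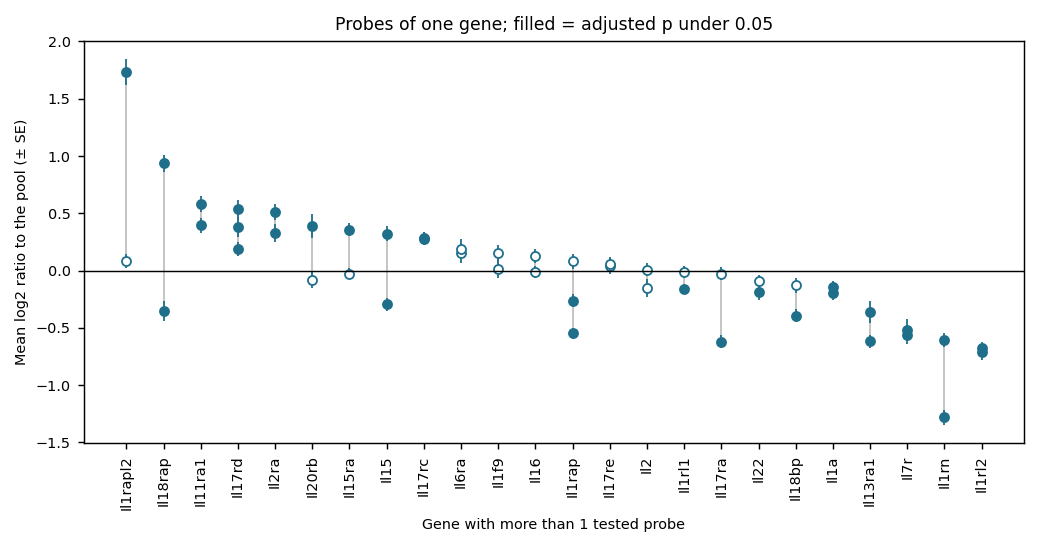
Points give the mean log2 ratio to the pool of each tested probe, with its standard error, for the 24 genes with more than 1 tested probe, filled where the adjusted p was under 0.05. The probes of Il1rapl2, Il18rap, Il15, Il17ra and Il1rn lie far apart, and those of Il17rc, Il7r and Il1rl2 nearly coincide.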

How the data were processed

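The authors deposited, for each array, the Agilent Feature Extraction output with median signal and background intensity per spot and channel (version 10.10.1.1 in the file headers and 11.0.1.1 in the submitters' processing notes), and a matrix of log2 ratios that was filtered in GeneSpring on detection flags. The matrix also gives the gene symbols. From the median intensities, normexp (offset 50) was fitted on unflagged spots, the flagged ones were dropped, loess was run within arrays and replicate spots were averaged. The tools were limma 3.58.1 under R 4.3.3, with files read by data.table (version 1.17.8). Probes well above background in Cy5 on at least 4 of 8 arrays and with at least 2 values per genotype (32645 of 41174) were tested with limma on the whole table, two-sided, and adjusted by Benjamini-Hochberg. Exact permutation tests over 4 against 4 arrays cannot go below p = 0.0286, and precision is limited by the number of arrays. Detection means the scanner software's well-above-background flag. Fits were tested on simulated data.

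Members, gene lists and tests were chosen with earlier results of these data known. The genes named were the cytokines the study names, probes at an unadjusted p under 0.05 or, with 8 values, with genotypes apart, the 6 highest and 6 lowest pool ratios, the 5 largest spreads, ligands detected on all 8 arrays and the genes of the 6 relations, each by its brightest tested probe. Marker lists used probes with values on all arrays. The alternatives changed background correction, normalization, filter, channel, test and blocks, or left out each mouse. Replicate numbers did not pair the mice, since the correlations of same-numbered deviations were 0.324, 0.247, -0.0849 and -0.21. For mice on the same slide they were 0.324, 0.247, 0.303 and 0.0754. Plots used matplotlib 3.10.9 (Python 3.11.15).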

Additional observations from a re-analysis of the deposited data

Results flagged for a closer look

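Groups of 4 arrays (both genotypes of the genes named above with 4 values) numbered 82. In 8 of them 1 array was farther from the others than expected for 4 values. Chance gives about 1 in 20 for genes not chosen by their values. Some of these genes, among them Il24, Il2rg and Il13ra1, were chosen for their spread or their difference. All groups also share the same 8 arrays, so the count cannot be set against that rate. In transgenic replicate 1, Il1b was at 0.0781 with the other transgenic arrays between -0.64 and -0.53, Il2rg at -0.73 with the others between -0.18 and -0.09, and Il34 at 0.0399 with the others between 0.24 and 0.27. In transgenic replicate 4, Il24 was at 0.74 with the others between -0.48 and -0.40, Il13ra1 at -0.95 with the others between -0.71 and -0.67, and Il7r at -0.94 with the others between -0.47 and -0.46. Il4ra in transgenic replicate 2 was at -0.50 with the others between -0.79 and -0.75. Il12a in wild-type replicate 2 was at 0.0201 with the others between 0.28 and 0.32. Of the 8, 7 were transgenic arrays. What set these arrays apart was not tested.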

How the results depend on the processing

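No interleukin probe had an adjusted p under 0.05 in any alternative run, with all mice or with each left out in turn, nor by the methods' t-test. The counts above and below the pool, 30 and 37, stayed within 1.5 times in all alternatives, between 23 and 32 above and between 28 and 42 below (27 to 31 and 33 to 36 with 1 mouse left out). The 17 single genes tested against the pool kept direction and call in all 286 comparisons. They include the 6 highest and 6 lowest ratios, chosen by the value that was checked, so for those genes the check is weak. Genes detected numbered 66 when all 8 arrays were required, 79 with at least 1 array, 80 with the positive and significant flag and 77 in the pool channel.

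The unadjusted counts of 1 higher and 1 lower were small and moved. The higher count was 2 with normexp at offset 0, with Agilent processed signals, with the authors' matrix and with no filter on dim probes, 3 by the methods' t-test, 0 with normexp fitted on all spots, with median centring and in the sample channel alone, and 0 to 3 with 1 mouse left out (0 without wild-type replicate 3 or transgenic replicates 2 or 3, and 3 without transgenic replicate 4). The lower count was 2 with normexp fitted on all spots and with median centring, 4 with array weights and when blocked by slide (both Il6ra probes, Il13ra1 and Il1f8 by slide), 0 at offset 0, with Agilent processed signals, with scaling between arrays, in the sample channel alone and with the scan day as a block, and 0 to 3 with 1 mouse left out (0 without replicate 2 of either genotype, 3 without replicate 1 of either genotype, and 2 without wild-type replicate 4 or transgenic replicates 3 or 4). With the replicate block the counts were 1 and 1, with 0 after adjustment. The numbers do not pair the mice, and Il33 had an unadjusted p of 0.0411 by limma there. Over all probes the unadjusted counts, 365 higher and 317 lower in the main run, moved as well. Higher probes over the whole array numbered 89 in the sample channel alone, 518 by the methods' t-test and 591 without transgenic replicate 4. Lower ones numbered 211 in the sample channel alone, 571 with array weights, 576 when blocked by slide and 634 without transgenic replicate 1.

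Differences beyond 1.5-fold numbered 2 with Agilent processed signals and with the authors' matrix and 1 in the sample channel alone, where Il25 was at 1.03, against 0 reported. Of 877 genotype differences of named genes under an alternative, 15 were counted as moved by more than the SD between replicates. That rule was not applied to Il13ra1, Il1rl2, Il17d and Il1b, whose differences were checked for sign and adjusted p only. The sign of the difference turned under at least 1 alternative for 27 of the 42 named genes, with no unadjusted p below 0.0851 by limma where it turned. Of the genes given by a test above these included Il1b, to -0.0224 with array weights and -0.0543 without transgenic replicate 1 (up to 0.199 without wild-type replicate 4) and Il17d, to -0.0122 in the sample channel alone. The relation of Il1b to the neutrophil list turned to -0.303 without 2 arrays. Without 2 arrays the relations of Il1r2 (0.766), Il33 (0.710) and Il18 (0.557) no longer passed. The cause was not tested. The 8 arrays limit every value, and the offset compresses the ratios of dim probes.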
